A study of Mus musculus with 6 samples.

Results

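The lectin-like receptors of the NKG2, CD94 and NKR-P1 families were followed across 3 stages of natural killer (NK) cell maturation in the mouse spleen. Members were all probe sets (groups of short array probes designed against a transcript) whose array annotation gives only symbols that start with Klrb, Klrc, Klrd, Klre, Klri or Klrk. The rule found 17 of 45037 probe sets, which stand for 10 genes. Of these, 15 carry 1 symbol, and 2 match a pair of genes, Klrb1b with Klrb1c and Klrc3 with Klrc2. No probe set in the annotation used here carried a Klri symbol. The cells came from spleens of RAG-/- mice, which lack mature T and B cells, and all groups share that deletion. NK1.1+ cells were sorted by flow cytometry. The first subset was CD27+CD11b-, the next carried both markers (CD27+CD11b+) and the last only CD11b (CD27-CD11b+), an order commonly taken as successive maturation, with 2 arrays each. No strain background or age of the mice was found in the labels. Whether the 2 arrays of a subset hold cells of different mice is likewise unstated, so each p-value rests on array-to-array spread that may be technical.

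These receptors are type II membrane proteins encoded in the NK gene complex. CD94, from Klrd1, pairs with an NKG2 chain and reads the nonclassical class I molecule Qa-1, which presents leader peptides of other class I molecules. The pair with NKG2A (Klrc1) is inhibitory and recruits the phosphatase SHP-1, while the pairs with NKG2C (Klrc2) and NKG2E (Klrc3) signal through the adaptor DAP12. NKG2D (Klrk1) does not need CD94 and binds stress-induced ligands of the Rae1, H60 and MULT-1 families. Among the NKR-P1 genes, Klrb1b encodes an inhibitory receptor for Clr-b and Klrb1f a receptor for Clr-g, both Clr proteins of the Clec2 family. Klrb1a and Klrb1c encode activating receptors that use the Fc receptor gamma chain. The product of Klrb1c is NK1.1, the antigen by which all cells here were sorted.

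Values are log2 expression values, and a difference of 1 is a 2-fold change. Array medians lay between 5.26 and 5.35. A background level of 6.59, the 95th percentile of the means of 43 measured genes of other tissues, marks values that are called near background, because no detection call came with the values. By subset, Cd27 was 8.78 and 8.03 (CD27+CD11b-), 8.92 and 8.21 (CD27+CD11b+), and 6.96 and 6.47 (CD27-CD11b+). Itgam, which encodes CD11b, was 6.37 and 5.88, 8.69 and 8.01, and 9.93 and 9.44 in the same order, so both sorting markers followed the titles. The sort description of CD27-CD11b+ replicate 1 gives the CD27+CD11b- gate, not that of its title. Grouping used the title, and its Cd27 and Itgam values lay nearest those of the other CD27-CD11b+ array. All 12 NK cell markers were above background in at least 1 subset, as were 4 of 11 T cell, 0 of 9 B cell, 14 of 19 monocyte and macrophage and 5 of 7 neutrophil markers. A division of the arrays crosses the subsets: 3 unnamed probe sets averaged 12.57 to 12.81 in 3 arrays (the on arrays: replicate 2 of CD27+CD11b- and of CD27+CD11b+, replicate 1 of CD27-CD11b+) and 4.33 to 4.47 in the other 3 (the off arrays). Each side holds 1 array of every subset.

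Promoters are shown for the members whose probe sets are hard to tell apart or which differed from close relatives. For 9 of the 10 genes RefSeq (GRCm38.p6) gives a promoter, and the 250 bases before the annotated start were read. The promoters of Klrc2 (chr6:129660597-129660846, minus strand) and Klrc3 (chr6:129643289-129643538, minus strand) were identical at 206 of 209 aligned bases (98.6%), and their transcripts share a probe set. Those of Klrb1a (chr6:128622935-128623184, minus strand) and Klrb1c (chr6:128788642-128788891, minus strand) were identical at 89.5% of 210 aligned bases, whereas Klrb1b (chr6:128826316-128826565, minus strand) reached 60.4% with Klrb1a and 48.1% with Klrb1c. Capitals mark TGTGGT on either strand, the core motif of RUNX factors.
Klrc2: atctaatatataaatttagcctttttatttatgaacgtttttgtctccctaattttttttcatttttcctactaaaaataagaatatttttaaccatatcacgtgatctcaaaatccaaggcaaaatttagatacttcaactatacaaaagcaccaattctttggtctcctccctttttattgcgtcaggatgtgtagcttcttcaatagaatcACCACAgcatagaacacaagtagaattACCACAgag
Klrc3: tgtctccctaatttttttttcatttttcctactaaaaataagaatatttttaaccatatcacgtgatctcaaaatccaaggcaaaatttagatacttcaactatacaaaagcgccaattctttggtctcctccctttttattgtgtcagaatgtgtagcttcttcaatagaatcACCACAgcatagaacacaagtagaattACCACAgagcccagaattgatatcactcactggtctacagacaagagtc
Klrb1a: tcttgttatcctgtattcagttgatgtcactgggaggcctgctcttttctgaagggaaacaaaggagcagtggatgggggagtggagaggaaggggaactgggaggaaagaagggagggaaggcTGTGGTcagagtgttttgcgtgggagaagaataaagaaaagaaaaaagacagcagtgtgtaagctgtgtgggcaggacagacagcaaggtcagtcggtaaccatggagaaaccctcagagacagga
Klrb1c: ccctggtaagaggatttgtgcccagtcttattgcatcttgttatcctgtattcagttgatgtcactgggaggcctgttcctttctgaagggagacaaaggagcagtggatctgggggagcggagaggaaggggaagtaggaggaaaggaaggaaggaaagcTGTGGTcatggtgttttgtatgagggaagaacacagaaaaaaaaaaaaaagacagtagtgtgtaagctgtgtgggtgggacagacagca
Klrb1b: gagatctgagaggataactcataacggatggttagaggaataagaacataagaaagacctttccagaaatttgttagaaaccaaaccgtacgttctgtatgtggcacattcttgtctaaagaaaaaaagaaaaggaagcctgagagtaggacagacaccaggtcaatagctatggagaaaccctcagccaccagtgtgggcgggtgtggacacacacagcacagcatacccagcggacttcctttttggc
The motif was found in 7 of the 9 member promoters (Klrb1a, Klrb1c, Klre1, Klrk1, Klrc3, Klrc2 and Klrc1) and not in those of Klrb1b and Klrb1f. It lies in 14% of the 32851 promoters of the table. The closely alike pairs above, Klrc2 with Klrc3 and Klrb1a with Klrb1c, are among the 7, so these matches are not independent. Of 8 other motifs searched on both strands, GGAAGT (ETS factors) was in Klrb1c, Klrb1b and Klrb1f and in 19.7% of all promoters. GGGTGTG, a motif of Krueppel-like factors, was in Klrb1b and Klrb1f and in 6.93%. TATAAA was in Klrc2 and Klrc1 and in 12.4%. CCAAT was in Klrk1, Klrc3 and Klrc2 and in 33.8%. The RUNX variant TGCGGT (5.1% of all promoters), the T-box motif AGGTGTGA (1.12%), its core AGGTGT, which the longer motif contains (11.8%), and TGACTCA, bound by AP-1 (4.46%), had no match in these windows. The motifs were chosen with expression values known, and a match is a description of the letters.

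In the outer comparison, CD27-CD11b+ cells gave higher values than CD27+CD11b- cells for all 8 probe sets of Klrc1, Klrc2, Klrc3, Klrd1, Klre1 and Klrk1, by 0.13 to 1.17 log2 units. Only Klrc2, the activating partner of CD94, passed the test, and its probe set stayed near background in all 3 subsets. Of the 17 probe sets, 14 were above background in at least 1 subset, and those of Klrc2 and Klrc3 alone and 1422065_at of Klrb1b were not. Of the 9 NKR-P1 probe sets, 7 had positive outer differences, with a median of 0.06, and the 5 of Klrb1b were lowest in CD27+CD11b+ cells. Over all 17, the median difference was 0.43, against -0.01 over all probe sets and 0.14 over the 16078 above background in at least 1 subset. The limma test, with Benjamini-Hochberg adjustment across the 45037 probe sets, called 1 member higher and 0 lower. It called 0.639% of all probe sets, 0.357% as higher and 0.282% as lower. For 11 members both CD27-CD11b+ arrays lay above both CD27+CD11b- arrays, and for 1 they lay below. Over all probe sets 24% lay above and 22.8% below. In arrays of sorted cells, fewer cells that make a transcript and less of it per cell cannot be told apart.

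**Figure D1:**
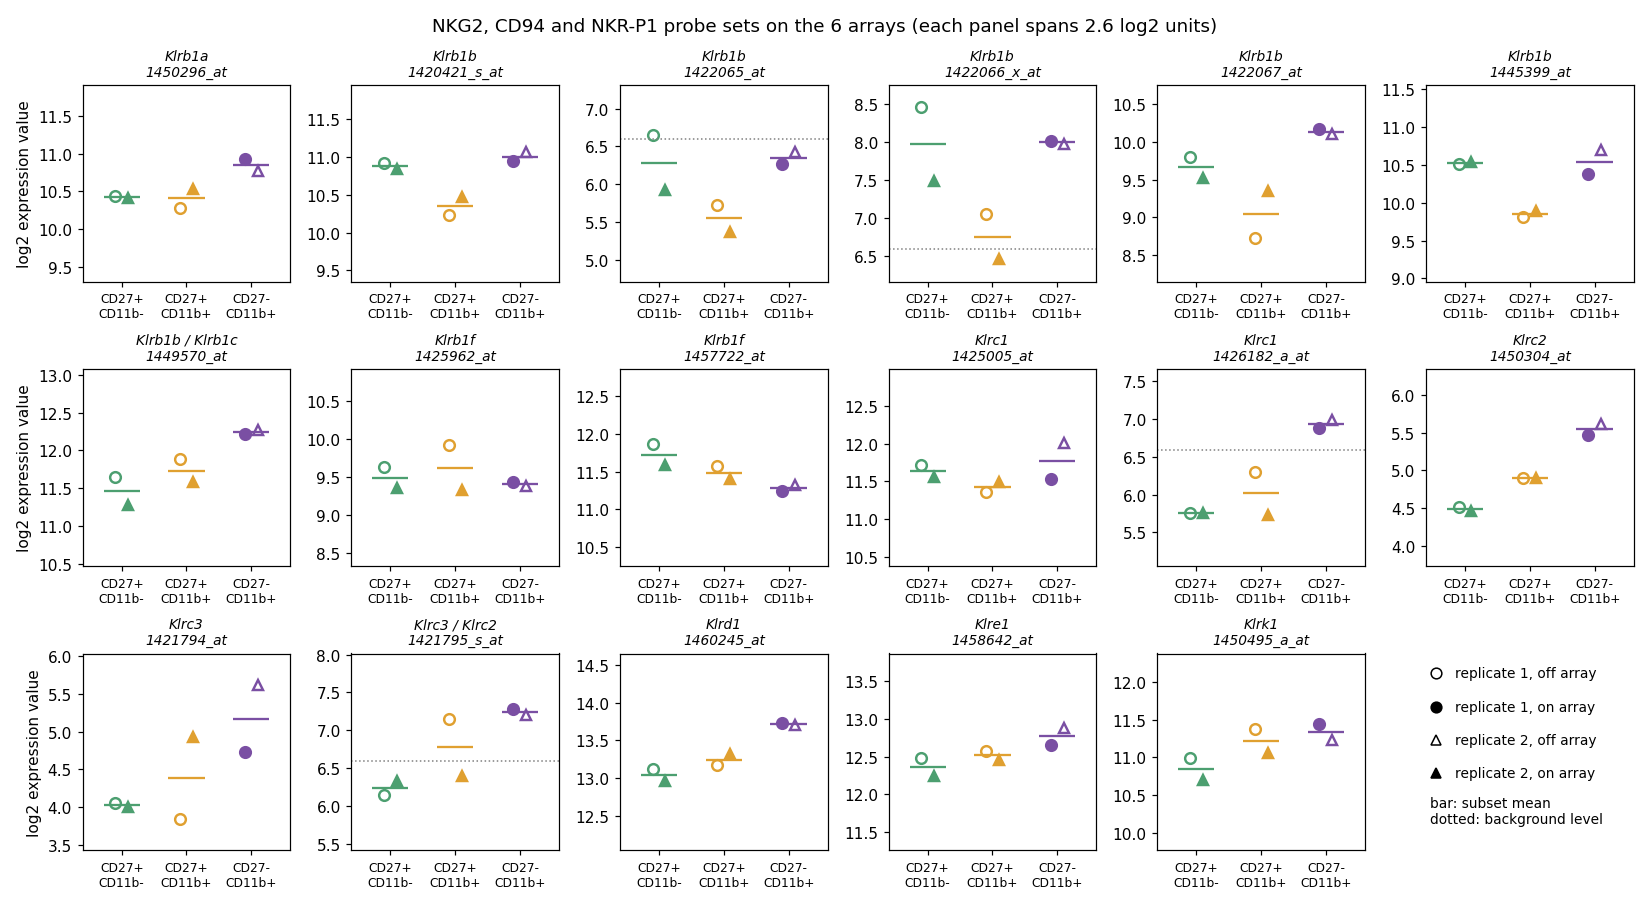
Log2 expression value (vertical axis, each panel spanning 2.6 units) of the 17 probe sets on the 6 arrays, by subset on the horizontal axis. Circles are replicate 1, triangles replicate 2 and filled symbols the on arrays. Bars are the mean of 2 arrays and dotted lines the background level of 6.59. Arrays do not overlap between any subsets for Klrc2, Klrd1 and 1421795_s_at, which rise, and for 1457722_at of Klrb1f, which falls. The same holds for 1420421_s_at and 1422067_at of Klrb1b, and all 5 Klrb1b panels dip in CD27+CD11b+.

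The 2 steps between neighbouring subsets were set apart next. CD27+CD11b+ cells against CD27+CD11b- cells gave 0 called members, where 0% of all probe sets were called and 2.97% had an unadjusted p under 0.05, as did 6 of the 17. All 5 Klrb1b probe sets, which are annotated to 1 gene, were among these 6. In this step 4 members lay above without overlap (14.8% of all probe sets did) and 7 below (15%), 5 of them probe sets of Klrb1b. With 1 probe set per gene, 22 of 18193 genes passed in limma, and 0 of the 9 member genes. The second step, CD27-CD11b+ against CD27+CD11b+, also gave 0 called members, with 0.04% of all probe sets called. An unadjusted p under 0.05 was reached by 10 of the 17 members and by 8.72% of all probe sets. The same 5 Klrb1b probe sets were among these 10, so neither count is one of separate genes. Here 13 members lay above without overlap (20.7% of all) and 1 below (16.8%). These were 7 of the 9 NKR-P1 probe sets (all but the 2 of Klrb1f, 5 of them Klrb1b) and 6 of the 8 others. Median differences of the members were 0.13 in the first step and 0.51 in the second, against 0.03 and 0.12 over the probe sets above background. The first of these shows no common rise: 9 members were positive and 8 negative. Its medians within the on and within the off arrays were -0.03 and -0.16. The 2 steps share the CD27+CD11b+ arrays.

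**Figure D2:**
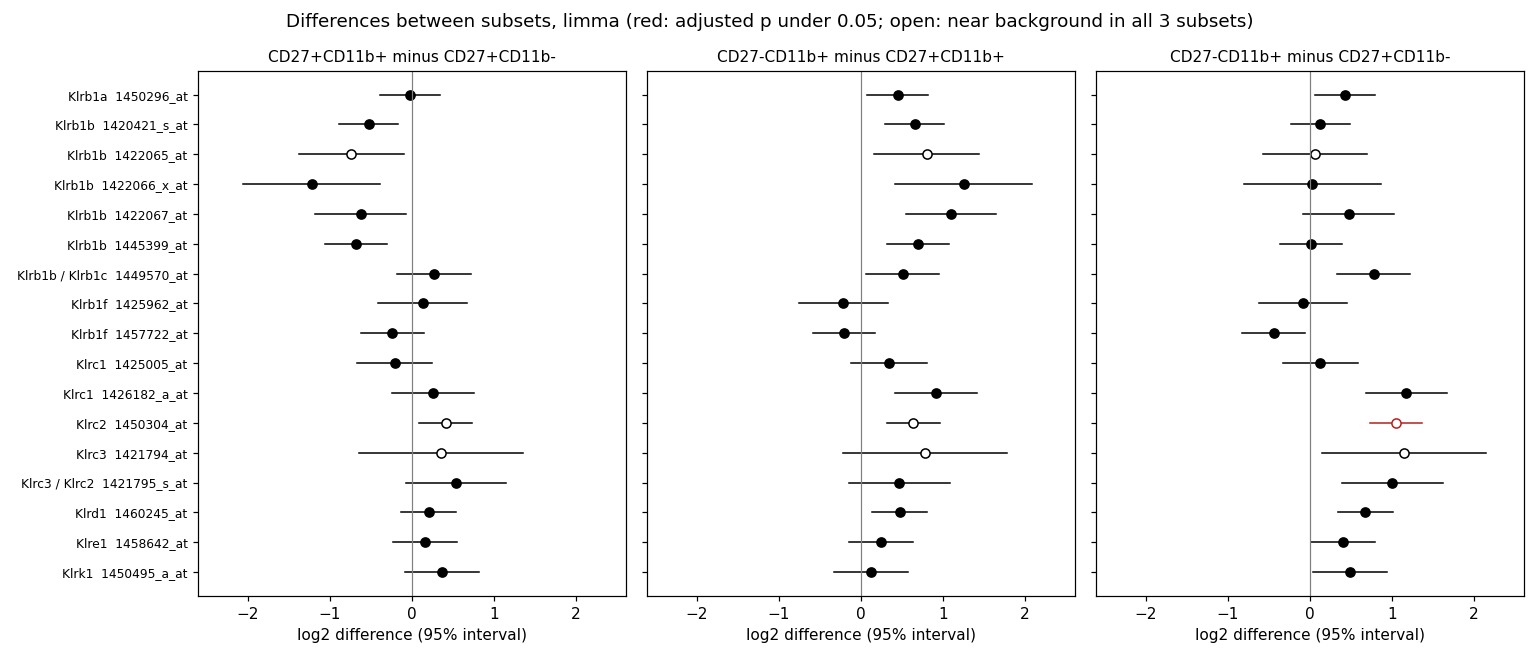
Log2 differences with 95% intervals from limma (horizontal axis) for the 17 probe sets (rows) in the 3 comparisons. Red marks an adjusted p under 0.05 and open circles a probe set near background in all 3 subsets; only Klrc2 in the outer comparison is red, and the 5 Klrb1b rows lie left of 0 in the first panel and right of 0 in the second.

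Klrd1, the CD94 chain that all 3 NKG2 partners need, had 13.12 and 12.97 in CD27+CD11b-, 13.17 and 13.32 in CD27+CD11b+, and 13.73 and 13.70 in CD27-CD11b+. Every array of a later subset was above every array of the earlier ones. CD27-CD11b+ cells averaged 13.72 ± 0.02 and CD27+CD11b- cells 13.04 ± 0.11 (SD, n = 2 each), a 1.597-fold difference (log2 0.67, SE 0.14, 95% interval 0.34 to 1.01) that did not pass in limma (adjusted p = 0.106, and 0.0415 to 0.392 over 14 other settings). It passed with an intensity trend and a robust prior (limma adjusted p = 0.0415). The difference was 0.76 within the on arrays and 0.58 within the off arrays.

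Klrc2 on 1450304_at was the member called. It had 4.52 and 4.47 in CD27+CD11b-, 4.90 and 4.90 in CD27+CD11b+, and 5.47 and 5.61 in CD27-CD11b+. The arrays did not overlap at either step, and all 6 values lay under the background level, so no fold is given. The fitted log2 difference of CD27-CD11b+ from CD27+CD11b- was 1.05 (SE 0.13, limma adjusted p = 0.0369), with 1.01 within the on and 1.09 within the off arrays. It sets 2 near-background signals against each other and is no measure of how far the transcript differed. The call was lost without any 1 of the 6 arrays (limma adjusted p = 0.0537 to 0.26, and 0.116 without CD27-CD11b+ replicate 1), with 0.98 to 1.11 for the difference. It was also lost after adding 32 to the linear values, where the difference shrank to 0.53 (limma adjusted p = 0.0551).

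Klrc3, a near copy of Klrc2, was near background on its own probe set, with 4.06 and 3.9997, then 3.85 and 4.92, then 4.72 and 5.62 in the order CD27+CD11b-, CD27+CD11b+ and CD27-CD11b+. The 2 arrays of the later subsets lay far apart, and the outer difference of 1.14 (SE 0.41) did not pass (limma adjusted p = 0.279). On 1421795_s_at, which reads Klrc3 and Klrc2 together, the subsets had 6.15 and 6.33, 7.15 and 6.39, and 7.28 and 7.20. Only the last subset was above background on both arrays. Measured from that level, CD27-CD11b+ cells were at least 1.57-fold above CD27+CD11b- cells, with a fitted difference of 1.003 (SE 0.25) that did not pass (limma adjusted p = 0.156). Which of the pair of transcripts this probe set read cannot be told apart.

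Klrc1, the inhibitory NKG2A chain, gave different pictures on its 2 probe sets. On 1425005_at it had 11.71 and 11.57 in CD27+CD11b-, 11.36 and 11.49 in CD27+CD11b+, and 11.53 and 12.00 in CD27-CD11b+. The outer groups overlapped, and their difference was 0.13 (SE 0.19, 95% interval -0.33 to 0.59, limma adjusted p = 0.811). On 1426182_a_at the values were 5.76 and 5.76, 6.30 and 5.73, and 6.89 and 6.98. Here both CD27-CD11b+ arrays stood above background and above the other 4. The outer difference of 1.17 (SE 0.21), at least 1.27-fold from the background level, did not pass (limma adjusted p = 0.0795, and 0.0628 to 0.37 over 13 other settings). The ending _a_at marks probes that may read several transcripts of a gene, and the levels of different probe sets are not comparable.

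Klrk1, the activating receptor NKG2D, had 10.9969 and 10.70 in CD27+CD11b-, 11.38 and 11.06 in CD27+CD11b+, and 11.45 and 11.24 in CD27-CD11b+. The later 2 subsets overlapped, and both lay above CD27+CD11b-. The outer difference of 0.49 (SE 0.19, 1.40-fold) did not pass (limma adjusted p = 0.296), and it was 0.74 within the on and 0.24 within the off arrays. Klre1, whose product pairs with KLRI chains, had 12.48 and 12.24, 12.58 and 12.46, and 12.65 and 12.88 in the 3 subsets from CD27+CD11b- to CD27-CD11b+. Neighbours in that order differed by 0.16 and 0.25, and the outer difference of 0.40 (SE 0.16) did not pass either (limma adjusted p = 0.316).

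Klrb1b, the inhibitory NKR-P1 receptor, was the only annotated symbol of 5 probe sets, and on each both CD27+CD11b+ arrays lay below all 4 others. Whether any of them, such as 1420421_s_at or 1422066_x_at, also reads transcripts of related genes was not tested. On 1445399_at it had 10.52 and 10.54 in CD27+CD11b-, 9.81 and 9.89 in CD27+CD11b+, and 10.39 and 10.70 in CD27-CD11b+. On 1420421_s_at the values were 10.92 and 10.84, 10.24 and 10.47, and 10.94 and 11.06. The outer subsets differed by 0.01 (95% interval -0.36 to 0.39) and by 0.13 (-0.23 to 0.48), and the middle subset lay below both. On 1422067_at the subsets had 9.80 and 9.53, 8.73 and 9.35, and 10.17 and 10.10. The probe sets 1422066_x_at and 1422065_at ran the same way, the second near background in all subsets on average. Probe sets of a gene share their target and are not independent.

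In the first step the 5 Klrb1b differences lay between -1.22 and -0.53, with unadjusted p between 0.00426 and 0.0322 in limma, and all had an adjusted p of 1. For the second step they were between 0.65 and 1.25, with limma adjusted p between 0.309 and 0.467. Both CD27+CD11b+ arrays lay below all others on each probe set, so leaving out 1 array could not turn either step's sign. It moved the first step over -0.93 to -0.32 on 1422067_at, -1.10 to -0.37 on 1422065_at and -1.71 to -0.73 on 1422066_x_at. On 1445399_at CD27+CD11b+ averaged 9.85 ± 0.06 and CD27+CD11b- 10.53 ± 0.02 (SD, n = 2 each), a difference of -0.68 (SE 0.16), and CD27-CD11b+, at 10.54 ± 0.22, exceeded CD27+CD11b+ by 0.69 (SE 0.16). The contrast of the second step minus the first was 1.18 to 2.47 on the 5 probe sets, with unadjusted p between 0.00194 and 0.014 and an adjusted p of 1 in limma. That contrast passed for 0 of 45037 probe sets, 2.54% of which had an unadjusted p under 0.05. In each subset pair next to it, CD27+CD11b+ held the lower arrays on all 5 probe sets. That order of the arrays also fixed the signs of both steps within the on and within the off arrays in advance. Only sizes could differ: 1422067_at had -0.18 within the on and -1.07 within the off arrays in the first step. The outer differences, 0.01 to 0.47, did not pass on any of them.

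**Figure D3:**
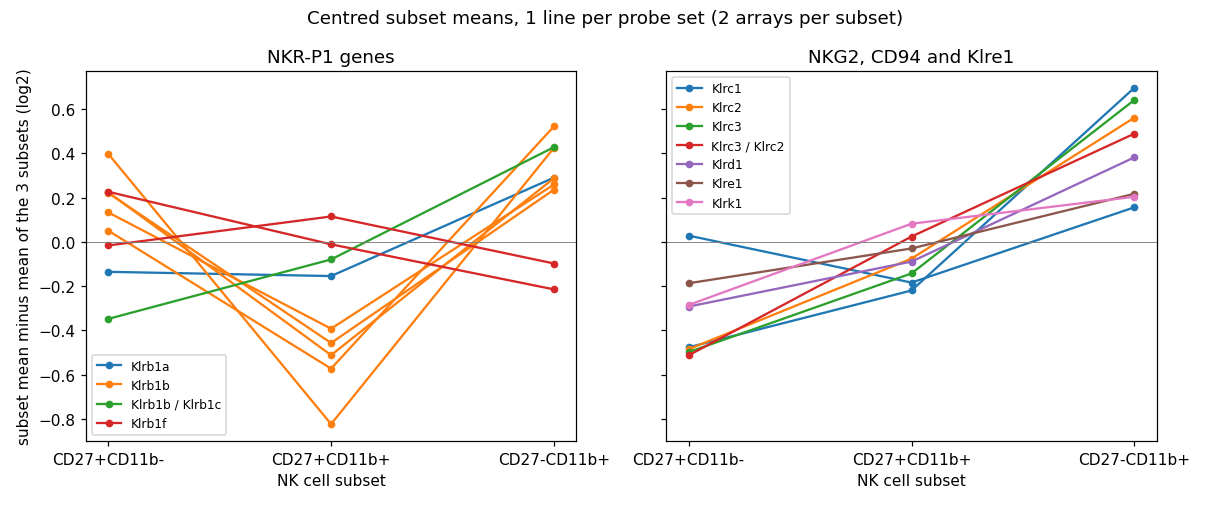
Subset means minus the mean of the 3 subsets (log2, vertical axis) for each probe set, by subset in order of maturation; each line is a probe set and each point the mean of 2 arrays. The 5 orange Klrb1b lines are lowest in CD27+CD11b+, while the means of Klrd1, Klrc2, Klrk1 and Klre1 in the right panel are highest in CD27-CD11b+, of which only Klrc2, near background, passed the test.

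The probe set 1449570_at, annotated to Klrb1b and Klrb1c, did not share that dip. It had 11.65 and 11.28 in CD27+CD11b-, 11.89 and 11.58 in CD27+CD11b+, and 12.22 and 12.27 in CD27-CD11b+. CD27-CD11b+ cells were 1.71-fold above CD27+CD11b- cells (log2 0.78, SE 0.18, 95% interval 0.33 to 1.22), with 0.94 within the on and 0.61 within the off arrays, and the difference did not pass (limma adjusted p = 0.138). Its difference from the 5 Klrb1b probe sets was not tested, and how much of it is Klrb1c, the NK1.1 gene, cannot be told apart.

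Klrb1a, a second activating NKR-P1 gene, had 10.44 and 10.42, 10.28 and 10.54, and 10.93 and 10.77 from CD27+CD11b- to CD27-CD11b+. The first 2 subsets overlapped and the last lay above both, by 0.43 against CD27+CD11b- (SE 0.15, limma adjusted p = 0.272). Klrb1f was the member gene with lower values in the outer comparison. On 1457722_at it had 11.86 and 11.59, 11.58 and 11.40, and 11.25 and 11.32, without overlap between any subsets, and an outer difference of -0.44 (SE 0.16, limma adjusted p = 0.272). On 1425962_at the values were 9.63 and 9.35, 9.92 and 9.33, and 9.44 and 9.38, which overlapped, with an outer difference of -0.08 (SE 0.22, limma adjusted p = 0.904).

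Along chromosome 6 RefSeq orders the genes Klrb1a, Klrb1c, Klrb1b, Klrb1f, Klre1, Klrd1, Klrk1, Klrc3, Klrc2 and Klrc1. Klrb1b and Klrb1f, whose outer differences ran from -0.44 to 0.47, are neighbours in that order. At the other end, Klrc3, Klrc2 and 1 probe set of Klrc1 were near background in CD27+CD11b-, so their outer differences are not ranked against the rest, and the other Klrc1 probe set had 0.13. Order along the chromosome is given as a description only.

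**Figure D4:**
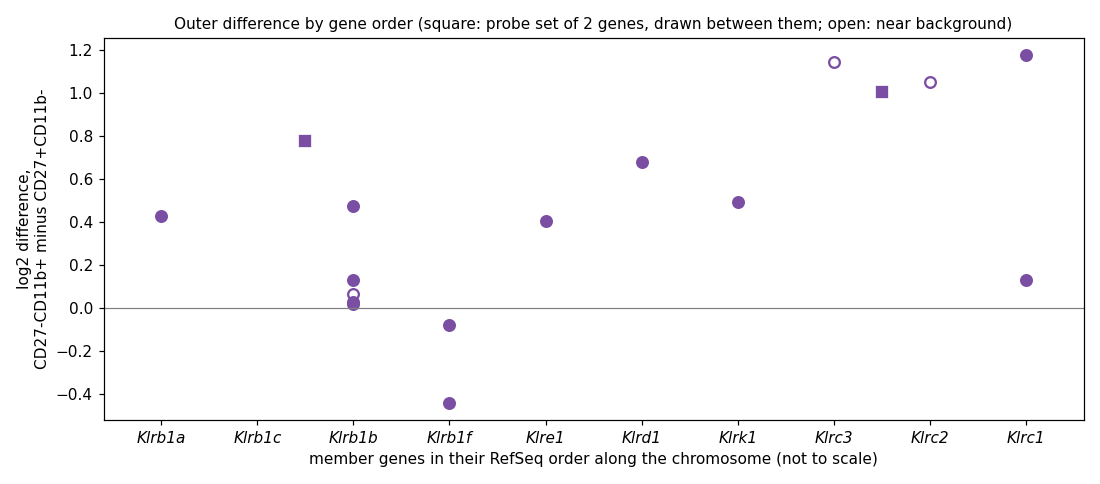
Log2 difference of CD27-CD11b+ minus CD27+CD11b- (vertical axis) for the 17 probe sets, with the 10 member genes in RefSeq order on the horizontal axis, not to scale. Squares match 2 genes and stand between them, and open circles are near background in all subsets; Klrb1f lies below 0, and the 4 points of 1 or more, all at the right end, have CD27+CD11b- near background.

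Partners of the receptors were read through 3 lists of genes. Of 18 genes listed as ligands, the 9 that had a probe set with a single symbol had 0 called in either direction in each comparison. Their outer median was 0.06, and 3 were above background: Clec2i, H2-D1 and H2-K1. H2-D1 and H2-K1 are class I genes other than Qa-1 and are not among the receptor ligands named above. Clec2i, which encodes Clr-g, the ligand of the Klrb1f product, had 8.04 and 7.96 in CD27+CD11b-, 7.62 and 7.64 in CD27+CD11b+, and 7.38 and 7.56 in CD27-CD11b+, and did not pass in the outer comparison (difference -0.53, SE 0.14, limma adjusted p = 0.164). Clec2d, which encodes Clr-b, the ligand of the Klrb1b product, was near background on all arrays, between 4.01 and 6.50. Genes for Qa-1 and for the Rae1 family were not analysed here.

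Of 19 measured adaptor and proximal signalling genes, 1 rose and 0 fell in the outer comparison, and 0 passed at either step. The list's outer median was 0.44, beside the members' 0.43, against 0.14 over the probe sets above background. Fcer1g, the Fc receptor gamma chain used by the activating NKR-P1 receptors, was the gene that rose: it had 10.59 and 10.54 in CD27+CD11b-, 11.57 and 11.34 in CD27+CD11b+, and 12.03 and 11.69 in CD27-CD11b+. No array of a later subset overlapped an earlier one, and the outer difference was 1.298 (SE 0.17, 2.46-fold, limma adjusted p = 0.042). Without CD27-CD11b+ replicate 2 the partner lists had 2 called genes in that comparison, and without any 1 of the other 5 arrays 0. Tyrobp, the adaptor DAP12, differed by 0.31 (SE 0.15, limma adjusted p = 0.41), and Hcst, the NKG2D adaptor DAP10, by 0.64 (SE 0.24, limma adjusted p = 0.286). The 3 inhibitory phosphatases had 0 called members and an outer median of 0.17, with Ptpn6, which encodes SHP-1, at 0.13 (SE 0.21, limma adjusted p = 0.82).

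Among the marker lists, only those of monocytes and macrophages and of neutrophils separated the on from the off arrays. Monocyte and macrophage markers averaged 7.76 to 8.10 in the on arrays and 6.54 to 7.37 in the off arrays, and neutrophil markers 7.60 to 7.83 and 6.18 to 6.93. Within a subset, on minus off is the gap between its replicates, so it cannot by itself show that receptor values moved with the division. Over the 17 it ran from -0.98 to 0.18 in CD27+CD11b-, from -0.76 to 1.08 in CD27+CD11b+ and from -0.89 to 0.21 in CD27-CD11b+. The median size of that gap, whatever its sign, was 0.18, 0.30 and 0.12 in the same order, against 0.19, 0.24 and 0.26 over the probe sets above background, so in CD27+CD11b+ the receptors' median gap was the wider. Within the on arrays the members' outer median was 0.54, and within the off arrays 0.30. The first step had medians of -0.03 and -0.16, and the second 0.48 and 0.64, in the same order. Markers of other innate lymphoid cells followed the subsets on average. Past the limma threshold, 4 of 6 measured genes (Il7r, Kit, Tmem176a and Tmem176b) were lower in CD27-CD11b+ than in CD27+CD11b-. Of all probe sets 0.282% were called lower. In the outer comparison 1 of the 6 differences was positive, and in the second step 2 were, with a median of -0.05. The mean of the innate lymphoid markers was 8.43 and 8.71 in CD27+CD11b-, 7.22 and 7.33 in CD27+CD11b+, and 6.74 and 6.55 in CD27-CD11b+. T cell markers lay at 6.62 and 6.50, 6.34 and 6.14, and 5.73 and 5.70 in the same order. NK cell markers, a list of 12 genes that includes Klrk1, ran the other way, at 11.17 and 11.15, 11.67 and 11.65, and 12.05 and 11.92. The part of any of these lists in the receptor values was not tested.

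Klrc2 had the highest F statistic over the 3 subsets among the members (31.9, limma adjusted p = 0.0991), and 0 members passed that test, against 0.206% of all probe sets. Its values were near background throughout, so the likeness of other genes to it describes a dim signal. By Pearson's r over the 6 arrays, among 2178 probe sets above background that ranged over at least 1 log2 unit, the 5 most alike were Zeb2, Zfp82, S1pr5, Pald1 and Rnf113a2, with r between 0.991 and 0.998, and no order is read from these values. Zeb2, a transcription factor of effector lymphocytes, averaged 9.21, 10.13 and 11.51 from CD27+CD11b- to CD27-CD11b+. S1pr5, a sphingosine-1-phosphate receptor, averaged 9.68, 10.65 and 12.22. The 6 points share their arrays and subsets, so these correlations describe a likeness across genes that are not independent.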

How the data were processed

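Gene expression was measured on Affymetrix Mouse 430 2.0 arrays in 6 samples, 2 per subset, grouped by their titles. The deposited log2 values were made by the authors with RMA, as the submitters' processing notes record; the log2 scale was read from the values, and no RMA version is named. RMA brings all arrays close to a common distribution, here with array medians of 5.26 to 5.35. It would hide a shift of most transcripts and shrinks differences at low signal. The number of arrays limits the precision. Of 45101 probe sets, 64 controls were left out.

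Members, lists and alternatives were chosen with earlier results of these data known. Differences came from limma 3.58.1 in R 4.3.3, fitting the 6 arrays together with a mean for each subset, 3 residual and 3.34 prior degrees of freedom, and Benjamini-Hochberg adjustment over all 45037 probe sets at a threshold of 0.05. With 2 arrays per subset, a difference that misses the threshold is not shown to be absent. Each list gene was read by its brightest probe set with 1 symbol. Values are printed for all member genes, for called partner genes and for Tyrobp, Hcst, Ptpn6, Clec2d and Clec2i, and 5 genes like the member with the highest F are named. Promoters were aligned globally in pairs, and identity is over aligned bases.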

Additional observations from a re-analysis of the deposited data

How the results depend on the processing

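Among the receptors, the count called in the outer comparison was 1. It became 0 after adding 32 to the linear values and with only the 2 subsets compared. With only probe sets above background (14 members tested) it was also 0, but that filter removes Klrc2, so its call was not tested there. The count was 2 with an intensity trend and a robust prior, which added Klrd1. It was 0 without any 1 of the 6 arrays (0 to 0). The counts of 0 in both steps and in the difference between the steps held in every setting that could be run (the fit of 2 subsets gives no difference between the steps), and the F test called 1 of 9 members with 1 probe set per gene, Klrc2. Fcer1g was lost from the partner genes (0 in place of 1) after adding 32 to the linear values, with quantile normalization, with only the 2 subsets and with the array division as a block, and the count was 0 to 2 without 1 array. Deviations of same-numbered arrays correlated at 0.61 between CD27+CD11b+ and CD27+CD11b-, whose same-numbered arrays lie on the same side of the division. The correlations were 0.06 for CD27-CD11b+ with CD27+CD11b+ and -0.08 with CD27+CD11b-. The main fit did not model this sharing. With the replicate number as a block the outer count stayed 1, Klrc2 at limma adjusted p = 0.0481. Over all probe sets the outer test called 288, against 18 to 971 without 1 array, 617 of 18193 with 1 probe set per gene, 447 with the trend and 68 with only the 2 subsets.

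With quantile normalization the outer Klrb1b differences turned negative on 1422066_x_at (-0.0979) and on 1445399_at (-0.0853). Leaving out 1 array turned the sign of 11 uncalled differences. In the first step these were Klrb1a (-0.15 to 0.11), Klrb1f on 1425962_at (-0.16 to 0.43), Klrc1 on 1426182_a_at (-0.029 to 0.54) and Klrc3 (-0.18 to 0.89). In the second they were Klrb1f on 1425962_at (-0.51 to 0.083) and Klrk1 (-0.0397 to 0.28). In the outer comparison they were Klrb1b on 1422065_at (-0.30 to 0.43), 1422066_x_at (-0.46 to 0.52) and 1445399_at (-0.14 to 0.17), Klrb1f on 1425962_at (-0.22 to 0.0567) and Klrc1 on 1425005_at (-0.11 to 0.36). The cause was not tested.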
